A study of Mus musculus with 78 samples.

Results

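Histone genes were followed here in the cerebral arteries of male C57Bl6 wild-type mice. They were the protein-coding rows of the expression table whose names begin with Hist1h to Hist4h, H1f, H2af or H3f, 82 of the 54532 genes in the table. Of these, 67 lie in the histone clusters and are of the replication type by name, and 15 are single variant genes. A level of at least 1 FPKM (fragments scaled to gene length and library size) in at least 3 libraries was reached by 30 members, 20 clustered and 10 single, which are named below.

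The arteries were profiled by RNA sequencing after bilateral common carotid artery stenosis (BCAS), which narrows both carotid arteries and lowers blood flow to the brain, or after a sham operation. The mice had eaten ad libitum (AL) or had been on intermittent fasting (IF) for 3 months before the operation. Arteries were taken 1, 7, 14, 21 or 30 days after it, which gave 20 groups and 78 libraries, with 4 libraries in each of 18 groups and 3 in each of 2 groups, BCAS AL day 1 and sham IF day 7. The arms over all days were sham AL with 20 libraries, sham IF with 19, BCAS AL with 19 and BCAS IF with 20.

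Core histones H2A, H2B, H3 and H4 form the protein spool of the nucleosome, and linker H1 histones bind the DNA where it enters and leaves. Most core histone genes are replication-type: they are expressed in S phase, lack introns, and their messenger RNAs end in a conserved stem-loop that is bound by SLBP in place of a poly(A) tail. Variant genes such as H3f3a and H3f3b (both encode H3.3), H2afz and H2afv (H2A.Z) and H1f0 give polyadenylated transcripts throughout the cell cycle and supply histones to cells that no longer divide, as most cells of an adult artery wall do.

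The fragments recovered over all genes came to 14601572 to 25944175 per library, and the 82 histone genes together took 0.144% to 0.199% of them. The library sizes implied by the smallest step in the FPKM values were 15122627 to 26813661, which are scaling sizes and not counts. Acta2, a smooth muscle actin, stood at 1757 to 7630 FPKM and Cldn5, an endothelial junction gene, at 326 to 756 FPKM, so markers of artery were high in every library. Genes shorter than 300 bases took 0.279% to 0.322% of the fragments in 3 libraries, replicates 2 and 4 of sham AL day 7 and replicate 2 of BCAS AL day 1, against 0.0563% to 0.106% in the other 75. Nothing in the labels ties libraries to separate animals beyond separate titles, so p-values below measure the spread between these libraries. Whether the RNA was selected by its poly(A) tail, and whether counting used strand, is not given in the sources used here.

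The stem-loop that marks replication-type histone transcripts was searched for on the sense strand of GENCODE M21 protein-coding transcripts as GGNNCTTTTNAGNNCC. It was present in 45 of the 82 members and in 72 of 21830 protein-coding genes, or 0.330%. Among the 30 retained members it was found in 15, which were 14 of the 20 clustered genes and the single gene H2afx. The match in the members whose levels differed with fasting (described further on) is printed for its letters, with both arms of the stem in capitals and the loop in lower case.
Hist2h3c2, Hist1h2be, Hist1h3d, Hist3h2a and Hist1h1c: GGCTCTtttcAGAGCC
Hist1h4h, Hist1h4c and Hist1h4d: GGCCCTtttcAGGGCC
Hist1h4i: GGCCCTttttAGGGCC
H2afx: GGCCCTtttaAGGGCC
Hist1h1c rose under fasting and the other 9 genes shown were lower, each in at least 1 of the sham and BCAS arms. In most of these genes the annotated transcript went on beyond the stem-loop: 377 bases in Hist2h3c2, 1861 in Hist1h2be, 752 in Hist1h3d, 330 in Hist1h4i, 1643 in Hist3h2a and 840 in Hist1h1c. Over the 14 retained clustered genes with a match, the median length after it was 381 bases (3 to 1861), and over the 30 clustered genes with a match that were not retained it was 44 bases (3 to 4884). A poly(A) signal, AATAAA or ATTAAA, stood in the last 60 bases of a transcript in 9 of the 20 retained clustered genes and 9 of the 10 retained single genes, against 78.8% of protein-coding genes.

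Promoters of a pair of H3 genes that were lower under fasting and of a pair of variant genes that were higher are shown because these members differed in opposite directions. They are RefSeq windows (GRCm38.p6) from 250 bases before to 50 after the start, read 5′ to 3′ on the gene's strand, which is plus for Hist1h3d and minus for the other 3. Capitals mark the CCAAT box (letters CCAAT), the TATA box, the octamer and the H1 box, on either strand.
Hist2h3c2, chr3:96239078-96239377: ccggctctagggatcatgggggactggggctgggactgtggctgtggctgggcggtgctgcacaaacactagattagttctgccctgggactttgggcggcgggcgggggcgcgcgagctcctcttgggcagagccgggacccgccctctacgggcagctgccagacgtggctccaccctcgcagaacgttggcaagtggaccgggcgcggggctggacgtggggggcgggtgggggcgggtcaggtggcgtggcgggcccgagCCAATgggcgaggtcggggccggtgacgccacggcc
Hist1h3d, chr13:23575513-23575812: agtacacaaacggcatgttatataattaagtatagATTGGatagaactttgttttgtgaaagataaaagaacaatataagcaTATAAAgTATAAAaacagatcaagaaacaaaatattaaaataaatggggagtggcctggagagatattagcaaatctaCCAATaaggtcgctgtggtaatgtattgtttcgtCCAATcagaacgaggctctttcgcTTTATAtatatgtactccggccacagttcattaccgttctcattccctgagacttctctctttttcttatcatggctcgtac
H1fx, chr6:87981433-87981732: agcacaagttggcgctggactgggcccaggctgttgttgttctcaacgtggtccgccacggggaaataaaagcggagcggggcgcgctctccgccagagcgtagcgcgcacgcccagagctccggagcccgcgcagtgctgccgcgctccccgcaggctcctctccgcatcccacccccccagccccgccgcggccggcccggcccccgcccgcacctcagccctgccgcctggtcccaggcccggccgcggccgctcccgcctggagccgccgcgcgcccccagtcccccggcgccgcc
H3f3b, chr11:116024455-116024754: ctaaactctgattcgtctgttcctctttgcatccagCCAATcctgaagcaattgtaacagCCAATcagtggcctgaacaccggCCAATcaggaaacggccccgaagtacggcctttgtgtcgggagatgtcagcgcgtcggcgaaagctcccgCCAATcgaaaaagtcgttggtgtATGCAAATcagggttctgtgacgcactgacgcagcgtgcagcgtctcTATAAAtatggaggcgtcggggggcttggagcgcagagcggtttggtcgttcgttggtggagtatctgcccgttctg
The H3f3b window lies wholly inside the gene's span in the expression table (chr11:116021912-116027962), so it belongs to a start within that span. None of the 4 motifs was in the H1fx window. The TATA box, searched as TATAAA, was in 12 of 18 clustered and 1 of 9 single retained genes with a RefSeq window, against 13.6% of 32851 mouse windows. The CCAAT box was in 13 of 18 and 6 of 9, against 37.4% of all windows. The octamer, searched as ATTTGCAT, was in 4 of 18 and 1 of 9, against 1.74%, and in 3 of the 5 H2B genes with a window. The leading H2B genes Hist1h2bc and Hist2h2be had no window. Hist1h2be had more than 1 window, and only that at chr13:23585921-23586220 held the octamer. The percentages are per window and the counts per gene. The H1 box, searched as AAACACA, was in 1 of 18 and 1 of 9, against 7.18%. These are matches of letters, and no match says only that the letters are not in the window.

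By level, the leading members were H3f3b, the clustered H2B gene Hist1h2bc and the linker gene Hist1h1c. H3f3b, an H3.3 gene on chromosome 11, had the highest median over the 78 libraries, 189.9 FPKM (143 to 255), and the other H3.3 gene, H3f3a, stood at 41.1 FPKM (32.3 to 49.7). Among linker genes Hist1h1c, which encodes the H1.2 subtype, had a median of 103 FPKM, H1f0 (H1.0) of 59.4 and H1fx (H1.10) of 5.18. The H2A variants were led by H2afv at 66.2 and H2afz at 50.9 FPKM, both H2A.Z genes, followed by H2afj at 39.5, the DNA damage marker H2afx at 15.3, and the macroH2A genes H2afy2 at 14.0 and H2afy at 9.44. All 10 retained single genes reached 1 FPKM in all 78 libraries.

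Among clustered genes a few stood far above the rest. Hist1h2bc, an H2B gene, had a median of 123 FPKM (82.7 to 154), and Hist2h2be, the next H2B gene, 15.0 (11.4 to 20.5). The leading H4 genes were Hist1h4h at 24.7 and Hist1h4i at 6.13 FPKM, the leading clustered H3 gene was Hist2h3c2 at 13.1, and the only retained clustered H2A gene was Hist3h2a at 9.32. The other 13 clustered genes had medians from 4.88 FPKM in Hist3h2ba to 0.118 in Hist1h2bn. Of the summed FPKM of the retained members, clustered genes made up 32.3% to 44.1% per library with a median of 39.3%, and H3f3b alone 19.2% to 30.7%. Of the 52 members that were not retained, 47 clustered and 5 single, 13 reached 1 FPKM in 1 or 2 libraries and 9 were at 0 in every library.

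**Figure D1:**
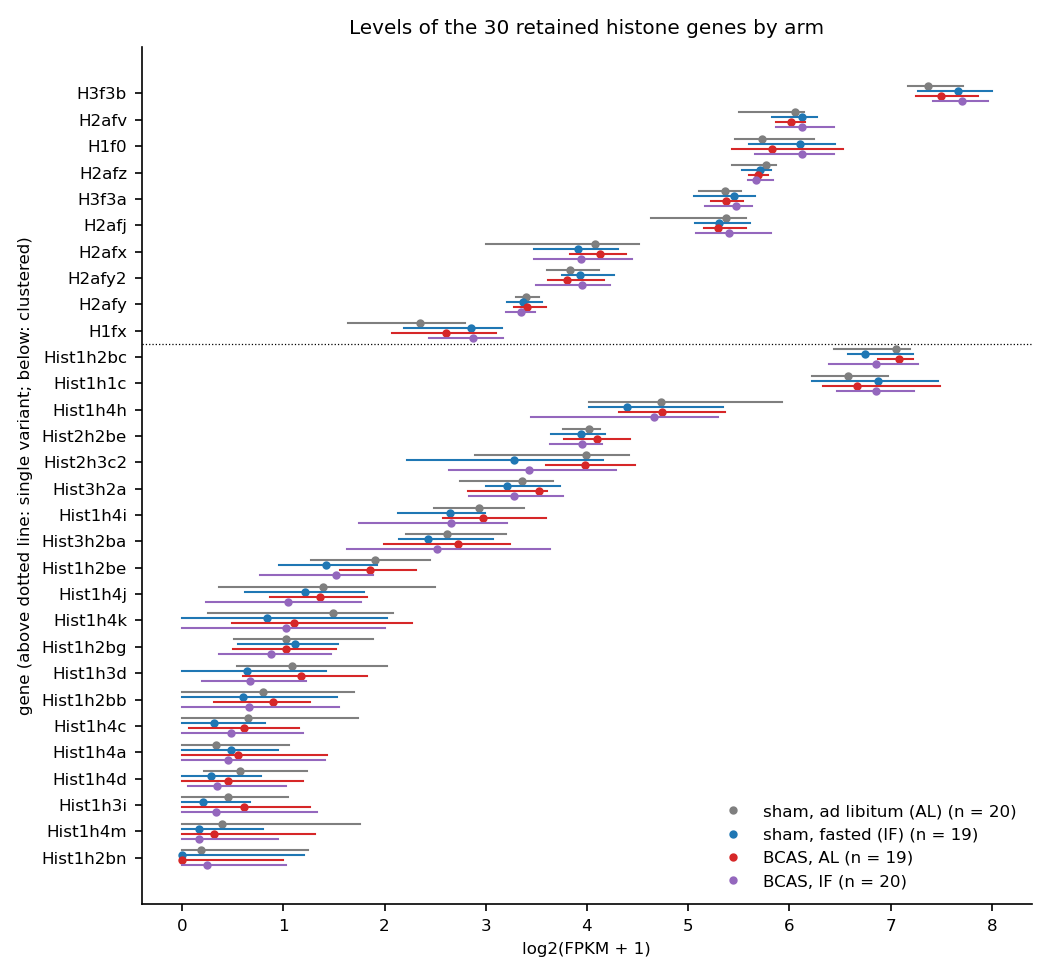
Levels of the 30 retained histone genes as log2(FPKM + 1), with the median (point) and the lowest and highest library (line) of each arm. H3f3b and Hist1h2bc lead the single and clustered genes, and 12 clustered genes lie under 1 FPKM in at least 1 library.

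Many of these rows cannot be told fully apart by sequence. At least 1 window of 100 bases was shared with another annotated gene in 22 of the 30 retained members. The shared part was 61.6% of the windows of Hist2h3c2, 38.5% of Hist1h4h, 64.3% of Hist1h4k, 29.8% of Hist3h2a, 25.4% of Hist1h2bc, 20.4% of Hist1h3d, 15.1% of Hist1h4i, 9.93% of Hist1h2be and 5.07% of Hist1h1c, against 0 in H1fx and H1f0 and 2.44% in H3f3b. The split by type is not clean: the single genes H2afz and H3f3a shared 24.8% and 6.26%, and the clustered gene Hist2h2be shared 0. How fragments that match several genes were counted is not given in the sources used here. Values of members with shared windows, clustered or single, may therefore include other genes. Hist1h2be also overlaps Hist1h1e (median 0.115 FPKM) on its strand. H1fx overlaps the antisense gene Gm5577 (median 0.539 FPKM), and H2afy2 overlaps Aifm2 (median 4.91 FPKM) on the opposite strand. The 18 members with at least 1 FPKM in all 78 libraries had at least 20 fragments in each of them.

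The members differed between the diets in both directions: H1fx, H1f0 and H3f3b were higher under fasting in sham and in BCAS, and the clustered core genes that passed were lower. In sham arteries, averaged over the 5 days, 12 of 30 members passed the threshold (limma, Benjamini-Hochberg adjusted p under 0.05 over all 15707 tested genes), 4 higher and 8 lower in IF than in AL. Of all tested genes 23.7% were called, 11.8% higher and 11.9% lower. In BCAS arteries 15 passed, 5 higher and 10 lower, beside 23.1% of all genes called, 11.2% higher and 11.9% lower. Of the 19 clustered core genes, 8 were lower and none higher in sham, and 8 lower and none higher in BCAS; their median log2 differences were -0.23 and -0.20, against 0.01 and 0.00 over all genes tested. Of the 8 in sham, Hist1h4c and Hist1h4d reached 1 FPKM in no sham IF library (highest 0.761 and 0.713 FPKM). They were retained through the other groups, so a lower sham IF value is favoured by the retention rule. The same holds for the uncalled Hist1h3i, Hist1h4m and Hist1h4a in sham IF (highest 0.596, 0.745 and 0.926) and Hist1h4m in BCAS IF (0.927). Hist1h2bn was under 1 FPKM in every BCAS AL library (highest 0.9996), which favours the other direction. The class medians are thus partly shaped by the rule. Of the 10 single genes, 3 were higher and none lower in sham, and 5 higher and 2 lower in BCAS. In bulk tissue, fewer cells of a type and less RNA per cell cannot be told apart.

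The fasting comparisons in sham and in BCAS use different libraries. In both of them 8 members passed, which were 8 of the 12 in sham and 8 of the 15 in BCAS, and each had the same direction in both: H1fx, H1f0 and H3f3b were higher, and Hist2h3c2, Hist1h2be, Hist1h3d, Hist1h4i and Hist1h2bc were lower. The share of all genes called in both comparisons is not given here, so this agreement is not shown to be particular to histone genes. Split by the stem-loop, 1 of the 15 members with a match was higher and 6 lower in sham, and 0 were higher and 7 lower in BCAS. Of the 15 without a match, 3 were higher and 2 lower in sham, and 5 higher and 3 lower in BCAS. Over all tested genes 11.8% were called higher and 11.9% lower in sham, and 11.2% and 11.9% in BCAS. The 6 lower members with a match in sham include Hist1h4c and Hist1h4d, for which the retention rule favours a lower sham IF value. Whether the stem-loop has a part in the split was not tested.

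**Figure D2:**
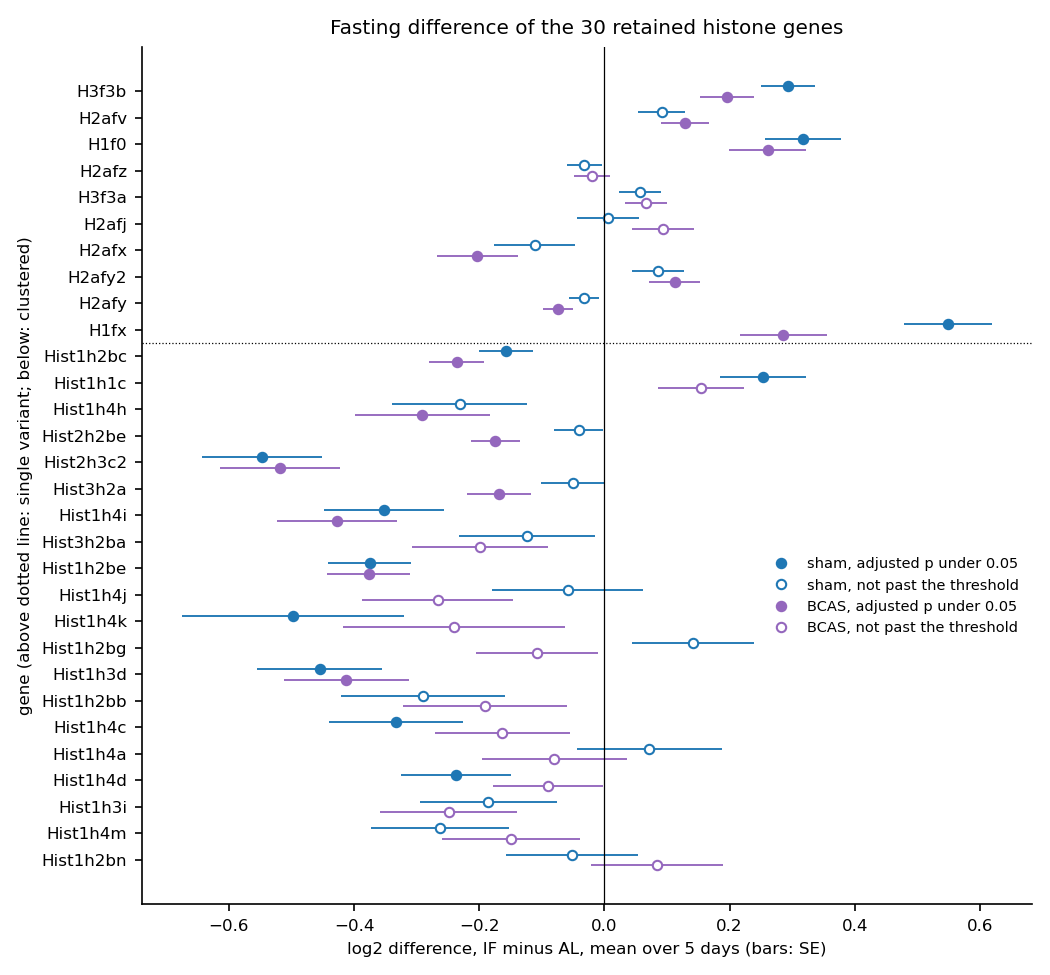
Log2 difference between IF and AL averaged over 5 days (points, bars are SE) for the 30 retained genes in sham and BCAS arteries, with filled points past the threshold. The scale is log2(FPKM + 1), which compresses low genes. H1fx lies at 0.55 in sham and 0.29 in BCAS, and Hist2h3c2 at -0.55 and -0.52.

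H1fx (chr6:87980421-87981637, minus strand, GRCm38) encodes H1.10, a linker histone distant from the other subtypes. It was between 2.11 and 5.94 FPKM with a median of 4.11 in the 20 sham AL libraries and between 3.58 and 7.93 FPKM with a median of 6.25 in the 19 sham IF libraries. In BCAS arteries it was between 3.22 and 7.60 FPKM with a median of 5.09 under AL and between 4.41 and 7.98 FPKM with a median of 6.34 under IF. The fasted libraries lay higher with overlapping ranges. The log2 difference on the log2(FPKM + 1) scale was 0.55 ± 0.07 (SE) in sham (adjusted p = 9.93e-09) and 0.29 ± 0.07 in BCAS (adjusted p = 0.00138). The IF mean was higher on 5 of 5 days in sham and 4 of 5 in BCAS.

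H1f0, the linker histone that accumulates in cells that have stopped dividing, was between 43.2 and 74.7 FPKM with a median of 52.0 in sham AL and between 47.4 and 86.3 FPKM with a median of 67.7 in sham IF. It rose by 0.32 ± 0.06 on the log2 scale in sham (adjusted p = 6.23e-05) and by 0.26 ± 0.06 in BCAS (adjusted p = 8.51e-04), with IF means higher on 5 of 5 days in each. Hist1h1c, a clustered H1 gene whose model carries both a stem-loop and a poly(A) signal, was between 73.7 and 125 FPKM with a median of 94.6 in sham AL and between 73.5 and 177 FPKM with a median of 116 in sham IF. It rose by 0.25 ± 0.07 in sham (adjusted p = 0.00450), and in BCAS the log2 difference was 0.15 ± 0.07 (adjusted p = 0.0996). All 3 retained linker genes thus passed in sham, and 2 of them in BCAS.

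Of the pair of H3.3 genes, which encode the same protein, only H3f3b (chr11:116021912-116027962, minus strand) passed. It was between 143 and 209 FPKM with a median of 164 in sham AL and between 153 and 255 FPKM with a median of 202 in sham IF, and between 151 and 232 FPKM with a median of 180.1 in BCAS AL and between 170.1 and 249 FPKM with a median of 208 in BCAS IF. The ranges overlapped, and the IF mean was higher on 5 of 5 days in both arms. H3f3b rose by 0.29 ± 0.04 in sham (adjusted p = 2.94e-07) and by 0.20 ± 0.04 in BCAS (adjusted p = 3.60e-04). The values for H3f3a were 0.06 ± 0.03 (adjusted p = 0.231) and 0.07 ± 0.03 (adjusted p = 0.160); the difference between both genes was not tested.

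No H2A variant passed in sham. In BCAS, H2afv, an H2A.Z gene, rose by 0.13 ± 0.04 (adjusted p = 0.00856) and H2afy2, a macroH2A gene, by 0.11 ± 0.04 (adjusted p = 0.0394). H2afx, whose protein is phosphorylated at DNA breaks and which is the 1 single gene with a stem-loop match, fell by 0.20 ± 0.06 (adjusted p = 0.0155), and H2afy, the other macroH2A gene, fell by 0.07 ± 0.02 (adjusted p = 0.0169). In sham their log2 differences were 0.09 for H2afv, 0.09 for H2afy2, -0.11 for H2afx and -0.03 for H2afy, none past the threshold. Aifm2, which overlaps H2afy2 on the opposite strand, differed by 0.38 in sham and 0.39 in BCAS, and its part in the H2afy2 value was not tested. The values of H2afz were -0.03 and -0.02, and those of H2afj 0.01 and 0.09.

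Hist2h3c2, a clustered H3 gene on chromosome 3 (chr3:96238108-96239127, minus strand, GRCm38), had the most negative log2 difference in both arms on the log2(FPKM + 1) scale, which compresses low genes. With limma-voom on recovered fragments the low gene Hist1h3d was more negative, at -1.23 in sham and -1.04 in BCAS, against -0.60 and -0.57 for Hist2h3c2. Hist2h3c2 was between 6.42 and 20.4 FPKM with a median of 14.9 in sham AL and between 3.66 and 16.9 FPKM with a median of 8.72 in sham IF. In BCAS it was between 11.1 and 21.3 FPKM with a median of 14.7 under AL and between 5.20 and 18.5 FPKM with a median of 9.73 under IF. The ranges overlapped in both arms, with the lower end of the fasted range far below that of the AL range in BCAS. The log2 difference was -0.55 ± 0.10 in sham (adjusted p = 1.37e-05) and -0.52 ± 0.10 in BCAS (adjusted p = 2.95e-05).

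The H2B genes Hist1h2be and Hist1h2bc were lower as well. Hist1h2be was between 1.42 and 4.45 FPKM with a median of 2.74 in sham AL and between 0.939 and 2.81 FPKM with a median of 1.68 in sham IF, with the IF mean lower on 5 of 5 days in sham and in BCAS. Its log2 difference was -0.38 ± 0.07 in sham (adjusted p = 1.75e-05) and -0.38 ± 0.07 in BCAS (adjusted p = 1.39e-05). Hist1h2bc, the most abundant clustered gene, was between 116 and 148 FPKM with a median of 135 in BCAS AL and between 82.7 and 154 FPKM with a median of 114 in BCAS IF. Its log2 difference was -0.16 ± 0.04 in sham (adjusted p = 0.00513) and -0.24 ± 0.04 in BCAS (adjusted p = 2.87e-05), with a lower IF mean on 4 of 5 days in each. Hist2h2be, an H2B gene with no stem-loop match, had -0.17 ± 0.04 in BCAS (adjusted p = 5.44e-04) and -0.04 ± 0.04 in sham (adjusted p = 0.485).

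Of the 8 retained H4 genes, which belong to a family whose members encode the same protein, 4 passed in sham and 2 in BCAS, all lower. Hist1h4i was between 4.63 and 9.41 FPKM with a median of 6.64 in sham AL and between 3.40 and 6.95 FPKM with a median of 5.28 in sham IF, a log2 difference of -0.35 ± 0.10 (adjusted p = 0.00419), and it differed by -0.43 ± 0.10 in BCAS (adjusted p = 4.79e-04). Hist1h4h, the most abundant, had -0.29 ± 0.11 in BCAS (adjusted p = 0.0408) and -0.23 ± 0.11 in sham (adjusted p = 0.110). Hist1h4k, Hist1h4c and Hist1h4d passed in sham only on a handful of fragments. Their medians in sham AL and sham IF were 10 and 5 fragments for Hist1h4k, 9.5 and 4 for Hist1h4c, and 9 and 6 for Hist1h4d.

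The remaining calls were Hist1h3d and Hist3h2a. Hist1h3d, a clustered H3 gene on chromosome 13, held a median of 22.5 fragments in sham AL and 13 in sham IF, and of 27 in BCAS AL and 13.5 in BCAS IF. Its log2 difference was -0.45 ± 0.10 in sham (adjusted p = 4.39e-04) and -0.41 ± 0.10 in BCAS (adjusted p = 0.00130). Hist3h2a, an H2A gene of the small cluster on chromosome 11, had -0.17 ± 0.05 in BCAS (adjusted p = 0.0109) and -0.05 ± 0.05 in sham (adjusted p = 0.517). Over both arms, 11 retained members passed in neither: H2afz, H3f3a, H2afj, Hist3h2ba, Hist1h4j, Hist1h2bg, Hist1h2bb, Hist1h4a, Hist1h3i, Hist1h4m and Hist1h2bn.

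Whether fasting acted differently in sham and BCAS arteries was tested by the interaction over days. No member passed in limma (2 at an unadjusted p under 0.05, 0 with limma-voom on recovered fragments), where 0.0127% of all genes were called. Members past the threshold in 1 arm alone, such as Hist1h1c in sham or H2afx in BCAS, are therefore not shown to differ between the arms. Counts at an unadjusted p, here and below, are given without the share of all genes at that threshold and are not read as results.

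When the call was repeated with 1 library left out at a time, 10 of the 12 sham calls and 13 of the 15 BCAS calls stood with every library left out. The exceptions were Hist1h4k, which lost its call with any of 10 of the 39 libraries left out (adjusted p up to 0.0664), and Hist1h4d with any of 15 (up to 0.0835) in sham. In BCAS they were Hist1h4h with any of 19 libraries (up to 0.0992) and H2afy2 with any of 17 (up to 0.122). All 8 members called in both arms passed in every other setting tried, and over all settings 9 of the 12 sham calls and 11 of the 15 BCAS calls passed in each. In sham the other 3 were Hist1h4k, Hist1h4d and Hist1h4c. Hist1h4c was lost in 5 settings, with an adjusted p of 0.0853 at a pseudocount of 0.1 and 0.106 with limma-voom, and Hist1h4d had 0.0829 with no filter. In BCAS the other 4 were Hist1h4h, H2afy2, H2afv (adjusted p = 0.0757 without day 21) and Hist3h2a (adjusted p = 0.145 without day 7).

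By day, members passed on day 1, 7, 14 and 30 in sham and on day 1, 7 and 14 in BCAS. In sham, 4 of 30 passed on day 1 (3.67% of all genes called), 3 on day 7 (9.05%), 3 on day 14 (4.39%), 0 on day 21 (0.382%) and 2 on day 30 (4.82%). The sham day 7 count is near the share of all genes. It includes Hist1h4c, for which the retention rule favours a lower sham IF value. That call was lost with any of 4 of the 7 libraries left out and in 6 of 7 other settings. In BCAS, 7 passed on day 1 (4.37%), 2 on day 7 (2.25%), 7 on day 14 (5.67%), 0 on day 21 (0.802%) and 0 on day 30 (1.35%). On days with no call, limma gave 1 member (sham day 21), 8 members (BCAS day 21) and 4 members (BCAS day 30) at an unadjusted p under 0.05, and limma-voom called 0. The percentages above are for adjusted calls and are no background for these unadjusted counts. Of these 28 daily calls, 8 stood with every library of their groups left out in turn. They were Hist2h3c2 and Hist1h2be on sham day 1, H1fx on sham day 7, H3f3b and H1f0 on sham day 30, Hist1h2bc and Hist1h2be on BCAS day 1, and Hist3h2a on BCAS day 14. Only 5 of these 8 also passed in every other setting. With only the groups compared in the limma fit, Hist2h3c2 on sham day 1 had an adjusted p of 0.118. H1fx on sham day 7 had 0.301 and Hist1h2bc on BCAS day 1 had 0.0526 in that fit.

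On day 1, 3 of the 4 sham calls and 5 of the 7 BCAS calls were clustered genes, all lower under fasting. Hist2h3c2 was at 19.4, 14.0, 15.7 and 11.5 FPKM in sham AL and at 9.73, 6.70, 3.66 and 7.72 in sham IF. It was at 11.1, 15.9 and 14.3 in BCAS AL and at 6.24, 5.20, 6.03 and 8.45 in BCAS IF. The diets did not overlap in either arm. The log2 differences were -1.06 ± 0.21 in sham (adjusted p = 0.00150) and -0.99 ± 0.23 in BCAS (adjusted p = 0.00529). The BCAS call was lost without replicate 2 of BCAS AL, a short-gene-rich library (adjusted p = 0.0581). The sham call was lost with only the groups compared in the fit (adjusted p = 0.118).

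Hist1h2be on day 1 was at 2.74, 2.60, 2.52 and 2.38 FPKM in sham AL and 1.45, 1.19, 0.939 and 1.45 in sham IF. In BCAS it was at 2.00, 2.65 and 2.76 under AL and 0.700, 1.21, 1.30 and 1.25 under IF. Again no fasted library reached an AL library, and the log2 differences were -0.66 ± 0.15 (adjusted p = 0.00529) and -0.72 ± 0.16 (adjusted p = 0.00347). Hist1h2bc was at 116, 142 and 148 in BCAS AL and 86.0, 96.3, 103 and 95.1 in BCAS IF, without overlap and with a log2 difference of -0.50 ± 0.10 (adjusted p = 0.00173). Hist1h4h was at 29.4, 21.0 and 39.9 in BCAS AL and 9.88, 11.2, 24.8 and 13.4 in BCAS IF, which overlapped through replicate 3 of BCAS IF. Its log2 difference of -1.02 ± 0.26 (adjusted p = 0.0111) was lost without replicate 1 of BCAS IF (adjusted p = 0.0614) or replicate 3 of BCAS AL (adjusted p = 0.156).

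**Figure D3:**
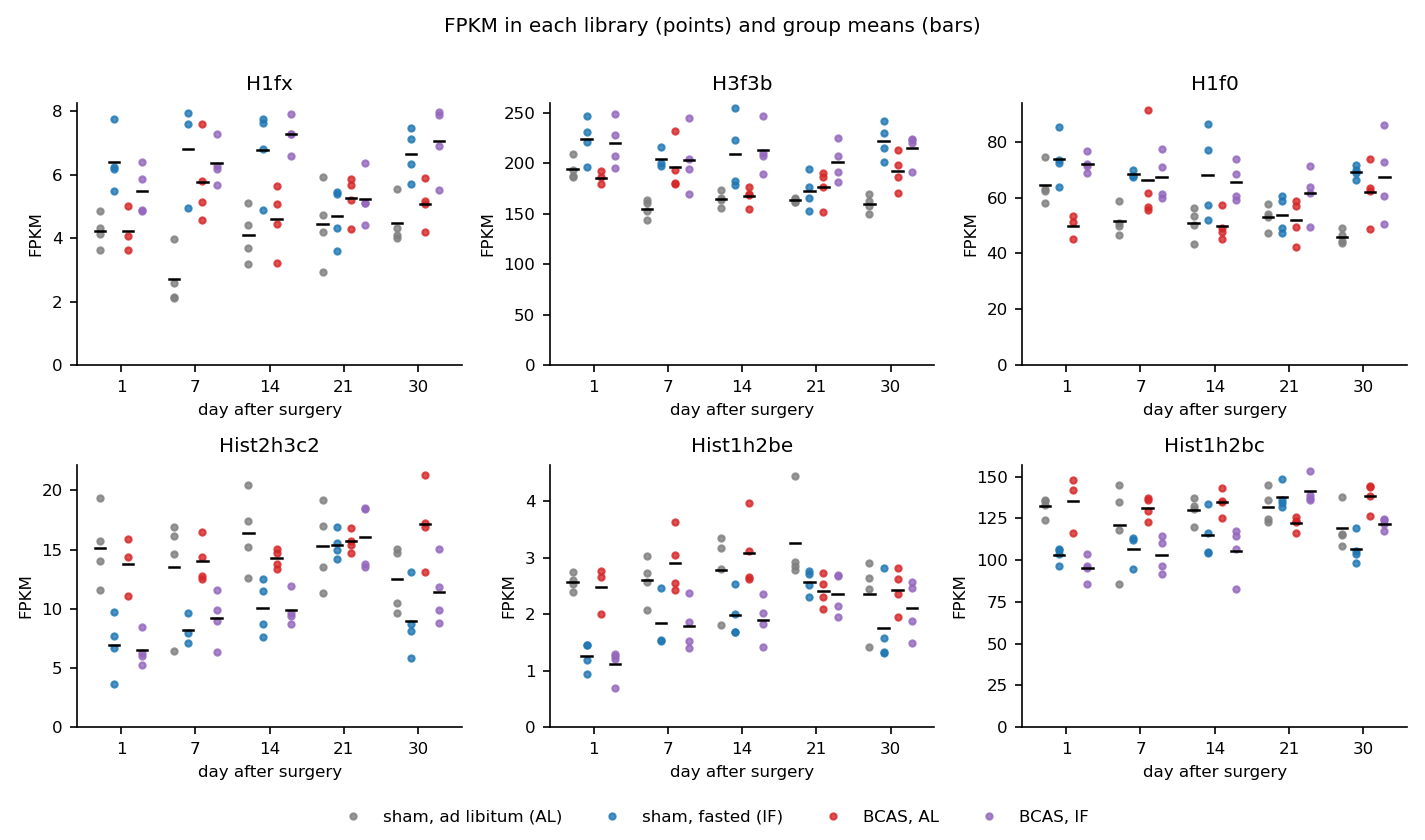
FPKM of 3 genes that were higher (top) and 3 that were lower (bottom) under fasting, by day after surgery, with a point for each library and a bar at each group mean. Hist2h3c2 has group means of 6.95 (sham IF) and 6.48 (BCAS IF) on day 1, and of 15.4 and 16.0 on day 21.

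H1fx, H1f0 and H3f3b each passed on at least 2 single days over both arms, all higher under fasting, and Hist1h1c passed on none. H1fx on day 7 was at 3.98, 2.58, 2.15 and 2.11 FPKM in sham AL and 4.95, 7.93 and 7.59 in sham IF, without overlap and with a log2 difference of 1.08 ± 0.17 (adjusted p = 1.86e-05). Without the short-gene-rich libraries, which include 2 of the 4 sham AL libraries of that day, it was 0.96 (adjusted p = 0.00334). With only the groups compared in the fit the adjusted p was 0.301. The summed level of 8 pericyte markers was 1628 to 1876 FPKM in sham AL and 1968 to 2285 in sham IF on that day, without overlap, and the part of these cells was not tested. On day 14 H1fx was at 3.22, 4.44, 5.07 and 5.64 in BCAS AL and 7.27, 7.92, 6.59 and 7.30 in BCAS IF, a difference of 0.58 ± 0.15 (adjusted p = 0.0126) that was lost without replicate 1 of BCAS AL (adjusted p = 0.107). On day 30, H1f0 was at 44.3, 46.7, 49.1 and 43.9 in sham AL and 68.9, 66.5, 70.1 and 71.6 in sham IF, and differed by 0.58 ± 0.13 (adjusted p = 0.00464). H3f3b was at 149.8, 169.6, 158 and 163 in sham AL and 242, 202, 216 and 230.2 in sham IF, a difference of 0.47 ± 0.09 (adjusted p = 8.44e-04). Neither gene overlapped between the diets on day 30.

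In BCAS on day 14, Hist3h2a was at 10.5, 11.0, 11.0 and 10.6 FPKM under AL and 6.13, 7.19, 9.21 and 7.03 under IF. The 4 fasted libraries lay below all AL libraries, with a log2 difference of -0.50 ± 0.11 (adjusted p = 0.00256). The other 6 calls of that day, in H3f3b, Hist1h2bc, Hist2h2be, H1fx, Hist1h2be and Hist1h3d, were each lost without at least 1 library of their groups.

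On day 21 no member differed between the diets past the threshold. Few genes of any kind did on that day, 0.382% of all genes in sham and 0.802% in BCAS. Hist2h3c2 was at 19.2, 17.0, 13.6 and 11.4 FPKM in sham AL and 15.5, 16.9, 15.0 and 14.2 in sham IF. In BCAS it was at 16.8, 15.4, 14.7 and 15.8 under AL and 18.4, 13.5, 18.5 and 13.8 under IF. The diets overlapped in both arms on that day, while the fasted group means on the other days were 6.95 to 10.1 FPKM in sham and 6.48 to 11.4 in BCAS. H1fx on day 21 was at 5.94, 4.21, 4.74 and 2.93 in sham AL and 5.45, 5.39, 3.58 and 4.32 in sham IF, again overlapping. An F test of whether the fasting difference varied over days, chosen after seeing the data, called no member in sham (7 at an unadjusted p under 0.05, 0 with limma-voom) and none in BCAS (7 unadjusted), where 0.00637% and 0.0255% of all genes were called. Hist1h2bc in BCAS had an adjusted p of 0.0763 in limma and passed with limma-voom. Without the 3 short-gene-rich libraries 1 member passed in BCAS.

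**Figure D4:**
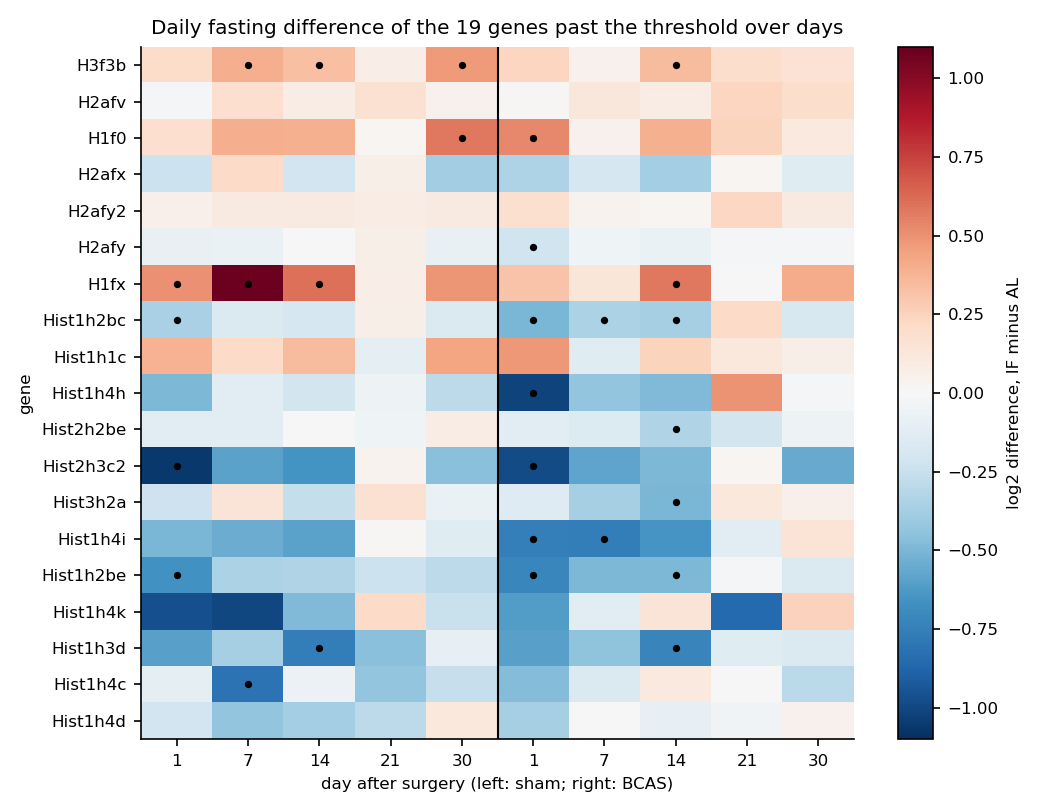
Log2 difference between IF and AL on each day for the 19 genes past the threshold over days in sham (left) or BCAS (right), red for higher and blue for lower in IF, with a dot where the day itself passed. H1fx on sham day 7 (1.08) and Hist2h3c2 on sham day 1 (-1.06) are the extremes among dotted cells. The day 21 columns hold no dot, where 0.382% of all genes were called in sham and 0.802% in BCAS.

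BCAS against sham, the comparison of lowered brain blood flow with the control operation, called few members, and only under AL. On day 7, 3 of 30 members were higher in BCAS AL than in sham AL, where 2.63% of all genes were called, 1.64% higher and 0.987% lower. H1fx was at 5.15, 5.81, 4.58 and 7.60 FPKM in BCAS AL, above all 4 sham AL libraries (3.98, 2.58, 2.15 and 2.11), a log2 difference of 0.88 ± 0.15 (adjusted p = 7.99e-04). H3f3b was at 180.1, 179.6, 194 and 232 against 161, 152, 164 and 143 in sham, without overlap, and rose by 0.33 ± 0.09 (adjusted p = 0.0403). Hist3h2a was at 9.78, 11.0, 10.9 and 11.2 against 10.7, 6.36, 9.95 and 5.71, which overlapped, with a difference of 0.39 ± 0.11 (adjusted p = 0.0444). The sham AL libraries are shared with the fasting comparison of that day, in which H1fx also passed.

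Replicates 2 and 4 of sham AL day 7 are short-gene-rich libraries. Without these libraries the day 7 differences were 0.76 for H1fx (adjusted p = 0.0436), 0.27 for H3f3b (adjusted p = 0.333) and 0.05 for Hist3h2a (adjusted p = 0.929), so that only H1fx passed. With each of 5 of the 8 libraries left out, the calls of H3f3b and Hist3h2a were lost, and that of H1fx with none. With only the groups compared in the fit all 3 calls were lost, and H1fx had an adjusted p of 0.492. On the same day macrophage and microglia markers passed for 2 of 9 genes, both higher in BCAS AL, and the summed level of the 9 was 241 to 330 FPKM in sham AL and 349.7 to 371 in BCAS AL. The summed level of 10 endothelial markers was 596 to 743 in sham AL and 752 to 882 in BCAS AL with 0 of 10 past the threshold, and that of the 28 S phase and cell cycle genes 66.0 to 69.6 and 71.8 to 81.1, so that the groups did not overlap in either of these sums or in that of the macrophage markers. Of 8 tested neuron markers 2 were lower, with sums over the 10 listed genes of 17.5 to 32.2 in sham AL and 17.3 to 22.2 in BCAS AL. Of 7 tested oligodendrocyte markers 1 was lower, with sums over the 8 listed genes of 29.0 to 180.3 in sham AL and 22.8 to 38.4 in BCAS AL. The part of these cells in the result was not tested.

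Over days, 1 member passed between BCAS AL and sham AL (0.987% of all genes): H1fx, with a log2 difference of 0.27 ± 0.07 (adjusted p = 0.0297). Of 10 endothelial markers 4 were higher in the same comparison, and their part in it was not tested. The H1fx difference was 0.12 with day 7 left out (adjusted p = 0.708). On days 1, 14, 21 and 30 under AL no member passed in limma (2, 1, 2 and 4 at an unadjusted p under 0.05, 0 with limma-voom), where 0.376%, 0.337%, 0.0% and 0.357% of all genes were called. Under IF no member passed on any day or over days (0 to 6 unadjusted, 0 with limma-voom), where 0.00637%, 0.153%, 0.0%, 0.0% and 0.0891% of all genes were called on the 5 days in order and 0.758% over days. An F test over all 20 groups, which takes in time, diet and surgery at once, called 17 of 30 members and 42.7% of all genes. They include H3f3a (adjusted p = 0.00850) and H2afj (adjusted p = 0.00862), which passed in none of the comparisons above.

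Genes that make, end and handle histone messages, and markers of other cells, were read beside the members and beside the 23.7% of all genes called in sham and 23.1% in BCAS. Of 23 tested genes for histone 3' end processing and transcription, 10 were lower and none higher under fasting in sham, and 7 lower and none higher in BCAS. Slbp, which binds the stem-loop, was at 2.38 to 4.34 FPKM and differed by -0.11 ± 0.04 in sham (adjusted p = 0.0362) and -0.04 ± 0.04 in BCAS (adjusted p = 0.477). Ncbp1, the large subunit of the nuclear cap-binding complex, differed by -0.15 ± 0.03 and -0.15 ± 0.03, and Lsm1, part of the ring that acts in histone mRNA decay, by -0.15 ± 0.04 and -0.12 ± 0.04, all past the threshold. Of 27 histone chaperone and assembly genes, 2 were higher and 6 lower in sham, and 3 higher and 3 lower in BCAS. The BCAS shares were near those of all genes, 11.2% higher and 11.9% lower. In sham the share lower was above that of all genes (11.9%) and the share higher below it (11.8%). Anp32e, an H2A.Z chaperone, differed by 0.06 ± 0.02 and 0.08 ± 0.02, and Hjurp, the chaperone of the centromeric H3, by -0.13 ± 0.04 and -0.12 ± 0.04, all past the threshold. The list medians were -0.10 and -0.04 for processing and -0.03 and -0.03 for chaperones, beside 0.01 and 0.00 over all genes.

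Of 15 tested S phase and cell cycle genes, 1 was higher under fasting in sham and 4 in BCAS, and none was lower. The share called was below that of all genes (23.7%) in sham and near it (23.1%) in BCAS. Mcm3, a subunit of the replicative helicase, differed by 0.15 ± 0.04 in sham and 0.24 ± 0.04 in BCAS, and Mcm5 by 0.24 ± 0.05 in BCAS. The division markers Mki67, Top2a, Ccna2 and Cdk1 stayed under 1 FPKM in every library, with highest values of 0.666, 0.689, 0.911 and 0.860. Pcna was at 27.4 to 37.1 FPKM. On day 7 under AL, 1 of the 15 genes, Ccnb2, was higher in BCAS.

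Of cell type markers, 3 of 9 macrophage and microglia genes were higher and none lower under fasting in sham, where 23.7% of all genes were called, and 2 of 9 in BCAS, where 23.1% were called. Their summed levels were 241 to 396 FPKM in sham AL, 293 to 414 in sham IF, 278 to 382 in BCAS AL and 254 to 434 in BCAS IF. Of 8 pericyte genes, 2 were higher in sham and 0 in BCAS, of 10 endothelial genes 1 was higher and 1 lower in sham and 2 lower in BCAS, and of 8 smooth muscle genes 1 was lower in each. Of 8 fibroblast and meninges genes 1 was higher in sham, and 2 were higher and 1 lower in BCAS. Of 7 neutrophil genes 1 was higher in sham, and of 7 astrocyte genes 1 was lower in each arm. No lymphocyte, red blood cell, neuron or oligodendrocyte marker passed in either fasting comparison over days. The part of these cells in the histone values was not tested.

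Within groups, Hist1h1c and H1f0 varied together. Over the 78 libraries, after subtraction of group means, Hist1h1c and H1f0 had Pearson's r = 0.85 and Spearman's rho = 0.85 (permutation within groups, 100000 resamples, p = 1e-05 for each, the smallest these can give, and adjusted over 153 pairs p = 5.10e-04 and 7.65e-04). Without the 2 libraries farthest from the median r was 0.84. H1fx, the remaining linker gene, had r = 0.42 with Hist1h1c and r = 0.37 and rho = 0.34 with H1f0 (permutation, adjusted p = 0.0345 and 0.0591), so the last did not pass by rho. H2afv had r = 0.66 with Hist1h2bc and 0.65 with H2afj, and 0.55 and 0.57 without the 2 farthest. H3f3b followed H1f0 with r = 0.64 and rho = 0.56 (permutation, adjusted p = 5.10e-04 and 0.00102), and r = 0.60 without the 2 farthest. Hist1h2bc and Hist2h3c2 had r = 0.58 and rho = 0.48 (permutation, adjusted p = 7.65e-04 and 0.00357), and r = 0.50 without the 2 farthest. Of the 153 pairs of 18 members, 23 passed by Pearson's r, 19 positive and 4 negative. The share of pairs passing over all genes is not given here, so these relations are not shown to be particular to histone genes. Replicate 4 of sham AL day 7, a short-gene-rich library, had the lowest FPKM of H3f3b, H2afv, H2afj and H1fx. Values of r without the 3 short-gene-rich libraries are not given here. FPKM values of a library share its total, and the part of that in these relations was not tested.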

How the data were processed

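RNA of mouse cerebral arteries was sequenced in 78 libraries. Day 7 comes from the group labels and is not in the treatment text, and the series' design text counts 4 time points where the labels give 5. The authors deposited FPKM values per gene for all of them; DESeq 1.10.1 is named, with no role, in the submitters' processing notes, and the aligner, counter and genome build are not given in the sources used here. Gene coordinates in the table equal those of GENCODE M21 for all 82 members. FPKM times gene length gave whole multiples of 1 step per library for 100% of values under 1000 fragments (tolerance 0.05), so fragments were recovered. The members and gene lists were chosen with earlier results of these data known.

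The 15707 genes that reached 1 FPKM in 3 or more libraries entered limma 3.58.1 (R 4.3.3, statmod 1.5.0, trended prior and robust fit) on the log2(FPKM + 1) scale, with 20 group means, two-sided, with Benjamini-Hochberg adjustment over all genes and a threshold of 0.05. The pseudocount of 1 understates changes of low genes. Alternatives were a pseudocount of 0.1, no filter, median-of-ratios scaling, limma-voom on recovered fragments, only the groups compared, leaving out libraries rich in genes under 300 bases or using that share as a covariate, and each library left out. Means without day 7 or day 21 and the F tests over days were chosen after seeing the data. Named in full are H1fx, Hist2h3c2, members past the threshold in any comparison or in the F test over the 20 groups, and the 2 of highest median in each of the H1, H2A, H2B, H3 and H4 families; other kept members are named by level. Tested on simulated data, the fasting mean in sham recovered 93% of genes changed by 0.5 (log2) with 6 false calls among 15707 genes. BCAS against sham under AL recovered 62% with 6 false calls on day 7, and 92% with 13 over days. The simulated noise was normal on the log2 scale, unlike that of genes resting on a few fragments. Tables and permutations used python 3.11.15 and scipy 1.17.1.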

Additional observations from a re-analysis of the deposited data

Results flagged for a closer look

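Hist1h2be stood at 0.70 FPKM in replicate 1 of BCAS IF on day 1, far below the other 3 libraries of its group relative to the group's range. It was the 1 such library in 42 checks of a gene in a group of 4, and chance flags about 1 in 20 checks, so this is no more than chance gives. The fasting difference of Hist1h2be on that day kept its call without this library.

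Pseudogene rows outside the comparisons also carried signal. H3f3a-ps1, a processed pseudogene of H3f3a, had a median of 11.1 FPKM over the 78 libraries, and H3f3c, listed as a processed pseudogene, 3.12 FPKM. Their part in the H3.3 values was not tested.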

How the results depend on the processing

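Of the 59 called log2 differences, 469 values were recomputed under other settings: 86 no longer passed and 0 reversed, and of 1330 values with a library left out 148 no longer passed. Median-of-ratios scaling ended none, but its factors were 0.984 to 1.01, so it left the values nearly unchanged and could hardly end a call. Fitting only the groups compared ended 28. Fasting counts over days stayed within 1.5 times the 12 and 15 given in every setting run. For BCAS against sham under AL on day 7, 3 members became 1 with no filter, with limma-voom, without the 3 short-gene-rich libraries and with their share as a covariate, and 0 with only the groups compared. The 1 member over days became 0 with no filter, only the groups compared, without the 3 libraries, without day 7 and without day 21, and day 30 went from 0 to 1 with no filter. With only the groups compared, fasting calls in sham went from 4 to 1 on day 1, from 3 to 0 on days 7 and 14 and from 2 to 5 on day 30, and in BCAS from 2 to 0 on day 7 and from 7 to 3 on day 14. With no filter they were 1 on sham day 14 and 0 on BCAS day 7, and with the covariate 1 on sham day 7. The F test over days in BCAS went from 0 to 1 with limma-voom and without the 3 libraries. The shares of all genes called in these settings are not given here, so the changes are not shown to be particular to histone genes. The cause was not tested.

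With 1 library left out, counts ranged from 1 to 5 for BCAS under AL on day 7 and 0 to 1 over days. Fasting counts in sham ranged from 2 to 5 on day 1, 1 to 7 on day 7, 0 to 3 on day 14, 2 to 3 on day 30 and 10 to 14 over days, and in BCAS from 4 to 7 on day 1, 0 to 3 on day 7, 4 to 7 on day 14 and 13 to 15 over days. The other counts stayed at 0. The shares of all genes called with a library left out are not given here either. No paired analysis was possible because the titles number libraries without a number shared between groups. Hist1h4k, Hist1h4c and Hist1h4d rest on median counts of 10 fragments or fewer per arm.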
